A study of Mus musculus with 23 samples.

Results

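Ribosome biogenesis in the nucleolus was followed through 46 listed genes, of which 45 had a probe set of their own on the array and all 45 could be tested, among 15542 genes tested in all and 19938 gene symbols on the array. The members were named by symbol, with earlier results of these data known. Each was measured by the probe set of highest mean that carried that symbol alone. Noc2l was not among the annotated symbols. By role, 4 members encode subunits of RNA polymerase I, 8 encode core proteins of small nucleolar ribonucleoproteins (snoRNPs) or their chaperone, 14 act in assembly of the small ribosomal subunit and 14 of the large subunit. The other 5 are the nucleolar proteins Ncl, Npm1, Ddx21 and Mybbp1a and the enzyme Srm, which makes spermidine and is not itself an assembly factor.

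Ribosomes are built in the nucleolus, where RNA polymerase I transcribes a long precursor of the ribosomal RNAs from repeated genes. snoRNPs modify that precursor, box C/D particles by methylation and box H/ACA particles by pseudouridylation, and large transient complexes then cleave and fold it with ribosomal proteins into the small and large subunits. The pathway sets how fast a cell can make protein, it is busy in dividing B cell precursors, and many of its genes are known direct targets of the transcription factor MYC.

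All mice had received a single dose of 2 Gy of radiation at 2 months of age, and 1 array was hybridised per sample. Pax5 encodes a DNA-binding protein that holds early lymphoid cells to the B lineage. Pax5+/- mice carry 1 working copy, and wild-type (WT) mice carry both. The leukemic groups were marrow cells of 10 Pax5+/- mice (samples 1 to 10) and 3 WT mice (14, 15 and 17), and the preleukemic groups were proB and preB cells of 7 Pax5+/- mice (11 to 13 and 21 to 24) and 3 WT mice (18 to 20), collected 3 weeks after irradiation. A further WT leukemia was not used here. The leukemic samples appear as pro-B cells in their titles and as leukemic marrow in their descriptions, how cells were sorted is not stated, and strain, sex and the age at leukemia are not given. Leukemic and preleukemic samples therefore differ in disease, in B cell stage, in time after the dose and in the markers of other marrow cells given below, and these cannot be told apart. Each Pax5+/- sample has a mouse number of its own, and WT samples carry only a running number, so the p-values measure the spread between samples as labelled. In a bulk sample, fewer cells that express a gene and less of its RNA per cell cannot be told apart.

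The arrays shared a common scale, with medians between 6.06 and 6.2 on the log2 scale, and their number limits the precision. Of 11 measured B cell precursor markers, 11 exceeded the array median in all preleukemic samples and 10 did so in all leukemic samples. Levels below are log2 signals of a probe set and were compared only within a gene. Of the 45 members, 44 lay above the array median in all 23 samples, and Rrs1 had group means below every array median.

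Short stretches of 7 member promoters are shown because they hold the E-box CACGTG, the sequence that MYC and its partner MAX are known to bind. They come from RefSeq (mouse build GRCm38.p6), in windows from 250 bases before to 50 bases after the annotated start of transcription, and the E-box is in capitals. The letters CACGTG read the same on both strands, so each match counts for both.
Mybbp1a, chr11:72441347-72441376, plus strand: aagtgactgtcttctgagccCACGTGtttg
Tsr1, chr11:74898092-74898121, plus strand: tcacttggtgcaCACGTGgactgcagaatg
Utp20, chr10:88826765-88826794, minus strand: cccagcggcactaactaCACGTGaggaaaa
Nop2, chr6:125131811-125131840, plus strand: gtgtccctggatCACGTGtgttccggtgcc
Utp4, chr8:106893643-106893672, plus strand: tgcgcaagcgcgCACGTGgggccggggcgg
Wdr43, chr17:71616220-71616249, plus strand: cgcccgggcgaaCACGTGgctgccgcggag
Pes1, chr11:3963965-3963994, plus strand: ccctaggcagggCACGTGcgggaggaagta

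A promoter was given for 38 of the 45 members, and 7 of the 38 (18.4%) held CACGTG, against 8.1% of all 27025 genes with a promoter in the table and 9.5% of the 15614 of them that are on the array. In 6 of the 7 the first base of the E-box lay 3 to 41 bases into the transcript, and in Nop2 it lay 60 bases before the start. The related sequence CACGCG, searched on both strands and unable to overlap CACGTG by its letters, was in 13 of 38 member promoters (34.2%), against 10.5% of all genes and 14.9% of those on the array. Member promoters were also richer in G and C, with a median of 58.0% against 52.7% for all promoters, and both sequences are themselves rich in those bases. The longer palindromes known as the motifs of BANP and NRF1, searched as fixed letters, were in 0 of 38 member promoters and in 0.8% and 1.6% of those of array genes.

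Between Pax5+/- preleukemic cells and Pax5+/- leukemias, nearly the whole set rose. Of the 45 members, 42 were higher in leukemia, 1 (Polr1e) was lower and 2 (Ddx10 and Bysl) did not pass (limma over all genes tested, Benjamini-Hochberg adjusted p under 0.05). Over all genes tested, 64.6% passed, 28% higher and 36.5% lower, so a change was common in this comparison while a rise was the less common direction. That direction depended on the filter for low values. With a filter at the 50th percentile, 4109 genes were higher and 3684 lower. The median log2 difference of the members was 0.78, with a range of -0.39 to 2.58, and that of all genes was -0.05. Among the members, 13 rose more than 2-fold, against 1068 of all 15542 genes tested. A log2 difference from 0.5 to 1 was seen in 21 members and one from 0 to 0.5 in 10. Of the 1554 genes with the largest log2 differences (the top 10%), 21 were members. In 25 members every leukemia lay above every preleukemic sample, against 11.7% of all genes, and this count was 35 without leukemia 3, against 12.8%.

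**Figure D1:**
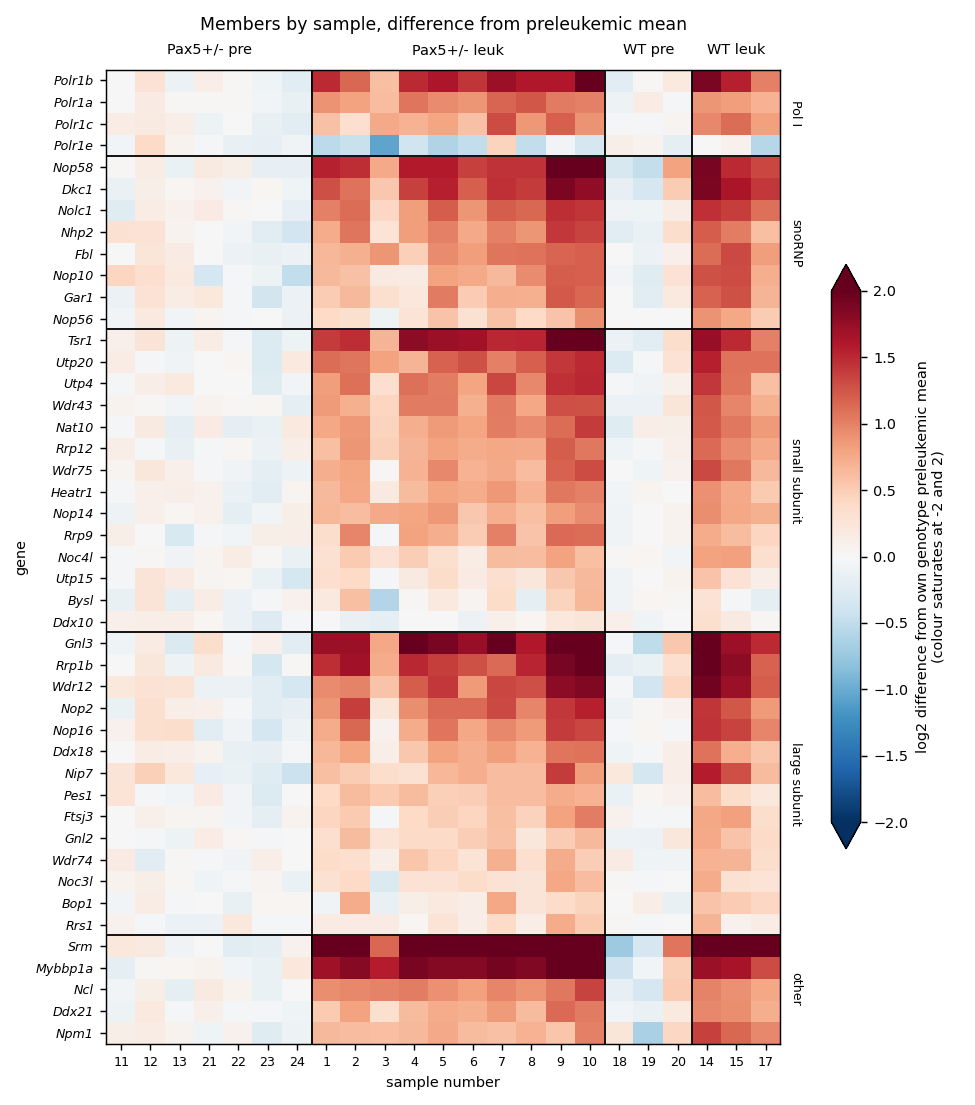
Difference of each member (rows, grouped by role) in each of the 23 samples (columns) from the mean of the preleukemic samples of its own genotype, in log2 units, with the colour saturating at -2 and 2. The leukemic columns are warm for nearly all members, palest in leukemia 3 and deepest in leukemias 9 and 10, while Polr1e, Bysl and Ddx10 stay pale or turn blue.

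Of the 4 RNA polymerase I subunit genes, 3 rose in the Pax5+/- leukemias and 1 fell. Polr1b, which encodes a large subunit at the active centre, ran from 7.27 to 7.79 (median 7.51) in the 7 preleukemic samples and from 8.11 to 9.59 (median 9.05) in the 10 leukemias, so the groups did not overlap. Its rise was 2.78-fold (SE 0.154 on the log2 scale, adjusted p = 6.01e-08). Polr1a, the catalytic subunit, held 7.68 to 8.00 (median 7.85) and then 8.45 to 9.08 (median 8.81), also without overlap, a 1.96-fold rise (SE 0.074, adjusted p = 7.29e-10). Polr1c, which RNA polymerase III shares, rose 1.75-fold and again had no overlap. Polr1e, a peripheral subunit, went the other way, from 7.42 to 7.97 (median 7.54) before leukemia to 6.54 to 8.04 (median 7.12) in leukemia. The groups overlapped, with leukemia 7 above all preleukemic samples and leukemia 9, at 7.53, among them. Polr1e fell by 0.39 on the log2 scale (SE 0.148, adjusted p = 0.0245), and without preleukemic sample 12 the adjusted p was 0.0626.

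All 8 snoRNP genes rose, by 0.42 to 1.53 with a median of 0.92 on the log2 scale. Nop58 and Nop56 encode the paired scaffold proteins of box C/D particles and marked the ends of that range. Nop58 lay between 7.43 and 7.77 (median 7.62) before leukemia and between 8.35 and 9.64 (median 9.11) in leukemia, with no overlap, and rose 2.89-fold (SE 0.169, adjusted p = 1.38e-07). Nop56 ran from 10.02 to 10.33 (median 10.11) before leukemia and from 10.04 to 11.06 (median 10.54) in leukemia. Only leukemia 3, at 10.04, fell within the preleukemic range, and the rise of Nop56 was 1.34-fold (SE 0.097, adjusted p = 0.000807). Fbl, the methyltransferase of the same particles, held 8.84 to 9.23 (median 8.98) and then 9.47 to 10.18 (median 9.91), also without overlap, a 1.87-fold rise (SE 0.098, adjusted p = 1.01e-07). A further probe set of Fbl gave a log2 difference of 1.20 against 0.91 for the one used.

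The box H/ACA proteins also rose by different amounts. Dkc1, the pseudouridine synthase, rose 2.55-fold, and its partners Nhp2, Nop10 and Gar1 rose 1.91-fold, 1.64-fold and 1.63-fold. Nolc1, a chaperone that binds both kinds of snoRNP, rose by 1.07 on the log2 scale. Of these 5 genes, Dkc1 and Nolc1 had groups that did not overlap.

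Of 14 genes of small subunit assembly, 12 rose and 2 did not pass, with a median log2 difference of 0.76. Tsr1, a late factor that blocks the subunit's initiation site until it matures, ran from 6.47 to 6.99 (median 6.69) before leukemia and from 7.42 to 8.82 (median 8.34) in leukemia. Every leukemia was above every preleukemic sample, and the rise was 3.01-fold (SE 0.156, adjusted p = 2.49e-08). Utp4, Utp15, Heatr1, Wdr43 and Wdr75 encode subunits of one early complex that binds the nascent precursor, and all 5 rose, with log2 differences of 1.05, 0.32, 0.74, 0.92 and 0.78. Utp20, Nat10 and Rrp12 rose by 1.12, 0.89 and 0.80, Nop14 by 0.73, Rrp9 by 0.72 and Noc4l by 0.47.

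The exceptions in the small subunit group were Ddx10 and Bysl. Ddx10, an RNA helicase, held 8.65 to 9.05 (median 8.95) before leukemia and 8.74 to 9.15 (median 8.90) in leukemia, almost the same range. Its log2 difference was 0.01 with a 95% interval of -0.14 to 0.16 (adjusted p = 0.896), an interval that leaves out the members' median. Bysl, which binds the maturing particle, ran from 6.94 to 7.38 (median 7.09) and then from 6.54 to 7.79 (median 7.32), with its lowest value in leukemia 3. Its log2 difference was 0.18 (SE 0.136, adjusted p = 0.252), and without leukemia 3 it was 0.26 with an adjusted p of 0.043.

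All 14 measured genes of large subunit assembly rose, with a median log2 difference of 0.62. Gnl3, or nucleostemin, a GTP-binding protein of proliferating progenitors, ran from 7.20 to 7.84 (median 7.47) before leukemia and from 8.26 to 9.91 (median 9.31) in leukemia, with no overlap. It rose 3.57-fold (SE 0.186, adjusted p = 4.02e-08), while its relative Gnl2 rose 1.36-fold. Rrs1, which helps to load a small ribosomal RNA onto the particle, had the smallest difference of the group. It held 5.4 to 5.72 (median 5.49) and then 5.55 to 6.25 (median 5.68), overlapping and low on the array's scale, and its log2 difference was 0.27 (SE 0.091, adjusted p = 0.0124).

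Pes1, Bop1 and Wdr12 form one complex needed for processing of the large subunit RNA, and their log2 differences were unequal, at 0.58, 0.28 and 1.23. The adjusted p for Bop1 was 0.0268, and it was 0.0558 without preleukemic sample 22. Rrp1b rose by 1.5 on the log2 scale, the RNA methyltransferase Nop2 by 1.10, Nop16 by 0.91 and the helicase Ddx18 by 0.73. Nip7, Ftsj3, Wdr74 and Noc3l rose by 0.67, 0.51, 0.44 and 0.33. Wdr12 and Ddx18 were each read by a further probe set, which gave log2 differences of 1.23 and 0.72.

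The 5 other members all rose, each with every leukemia above every preleukemic sample. Srm had the largest difference of the set. It lay between 7.84 and 8.28 (median 8.07) before leukemia, at 9.22 in leukemia 3 and between 10.49 and 11.30 in the other 9 leukemias, a 5.98-fold rise (SE 0.235, adjusted p = 8.99e-09). Mybbp1a, a nucleolar protein that also binds transcription factors, held 7.84 to 8.23 (median 8.04) and then 9.58 to 10.18 (median 9.87) and rose 3.64-fold (SE 0.102, adjusted p = 4.48e-12). Ncl, or nucleolin, the abundant RNA-binding protein of the nucleolus, held 9.93 to 10.32 (median 10.14) and then 10.96 to 11.48 (median 11.10), a 1.99-fold rise (SE 0.094, adjusted p = 1.49e-08). Npm1, or nucleophosmin, the chaperone that gives the nucleolus its outer layer, held 10.13 to 10.52 (median 10.44) and then 10.92 to 11.38 (median 11.01), a 1.60-fold rise (SE 0.109, adjusted p = 2.08e-05). The helicase Ddx21 rose 1.67-fold.

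**Figure D2:**
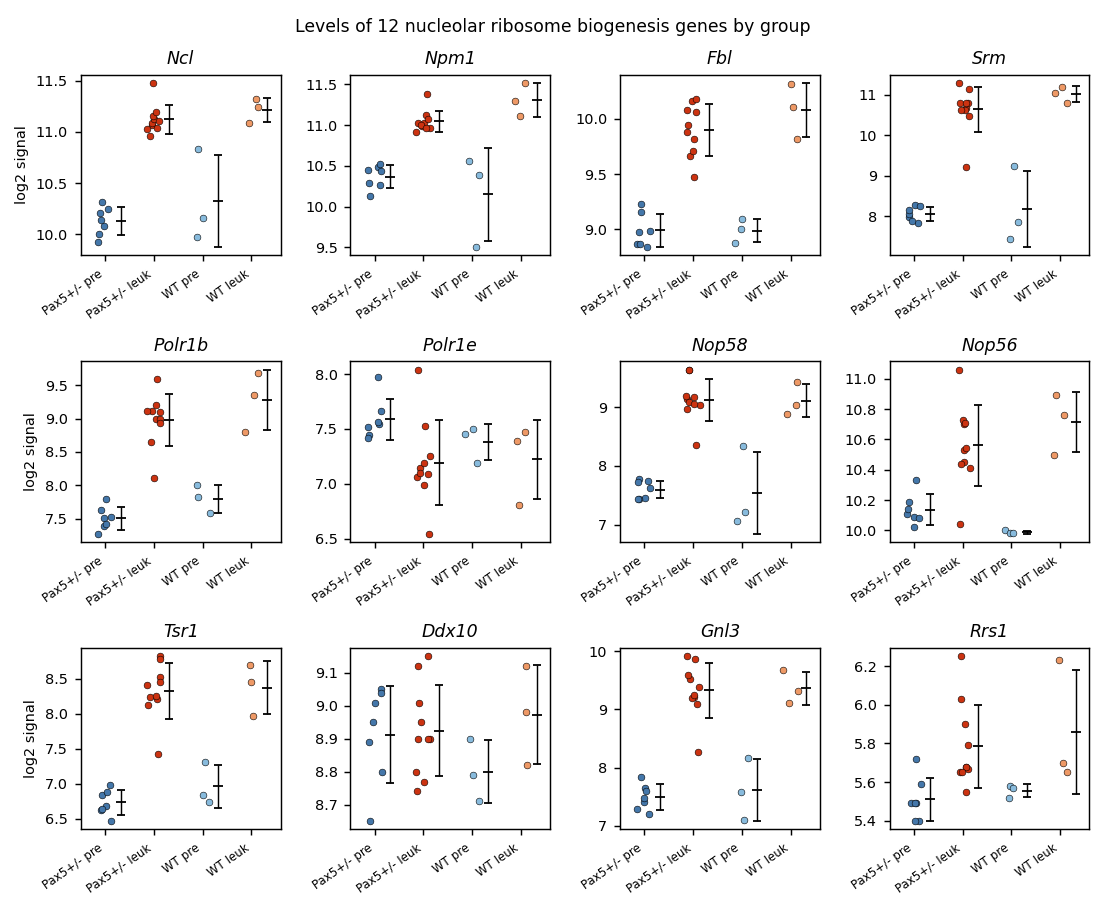
Log2 signal of 12 members in each of the 23 samples by group, with points for samples and bars for the mean and SD (n = 7, 10, 3 and 3). In both genotypes the leukemic samples lie above the preleukemic ones for Ncl, Npm1, Fbl, Srm, Polr1b, Nop58, Tsr1 and Gnl3, while the groups overlap for Polr1e and Ddx10.

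Markers of other marrow cells moved with the same comparison. All 5 megakaryocyte markers rose in the Pax5+/- leukemias, and their mean log2 level ran from 6.52 to 6.75 before leukemia and from 8.25 to 11.16 in leukemia. Of 13 monocyte and macrophage markers 10 rose (6.38 to 6.59 before, 7.28 to 9.56 after), of 14 neutrophil markers 11 rose (6.15 to 6.81 before, 6.17 to 10.95 after) and of 10 stroma and endothelium markers 8 rose and 1 fell (6.55 to 6.75 before, 7.44 to 8.62 after). Of the 11 B cell precursor markers 6 fell and 0 rose (11.26 to 11.66 before, 10.12 to 11.26 after). Of shorter lists, 1 of 4 erythroid markers fell, 2 of 9 T cell and 1 of 9 NK cell markers rose, and of 8 plasma cell markers 2 rose and 3 fell. A first component was taken from 64 of these marker genes, leaving out the B cell precursor and plasma cell markers. With it as a covariate, 33 of 45 members passed, all 33 higher, against 27.2% of all genes, and the members' median was 0.82. Of the 43 members called without it, 10 lost the call. One was Polr1e, whose log2 difference was then 0.00. The others were Npm1 (0.49 with the covariate), Nop10 (0.52), Gar1 (0.67), Bop1 (0.36), Rrs1 (0.41), Utp15 (0.29), Noc3l (0.34), Nip7 (0.65) and Gnl2 (0.31), all still above 0, with Bop1, Rrs1 and Noc3l no smaller than before. The megakaryocyte, monocyte and stroma marker levels above did not overlap between the stages. The component and the stage therefore cannot be fully told apart, and the fit cannot apportion the rise. The part of admixed cells in the members' rise was not tested.

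The letter in the mouse number, whose meaning is not given, differed between the stages except for L. Leukemia 10 and preleukemic samples 21 to 23 shared it, and among them 44 of 45 members were higher in the leukemia, with a median log2 difference of 1.17, against -0.05 for all genes. Polr1e was the exception at -0.22. These values rest on 1 leukemia, which was the highest of the 10 Pax5+/- leukemias for 22 of the 45 members.

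In WT mice the same comparison rests on 3 leukemias and 3 preleukemic samples. Of the 45 members, 40 were higher in leukemia, 0 were lower and 5 (Polr1e, Utp15, Bysl, Ddx10 and Rrs1) did not pass, while 37.2% of all genes passed, 17.9% higher and 19.3% lower. The median log2 difference was 0.96 against -0.06 for all genes. More than 2-fold rises were seen in 21 members, against 908 of all 15542 genes tested. By role, 8 of 8 snoRNP genes rose (median 1.09), 11 of 14 of small subunit assembly (0.87), 13 of 14 of large subunit assembly (0.72), 3 of 4 RNA polymerase I genes (0.88) and all 5 others (1.16). In 42 members all 3 leukemias lay above all 3 preleukemic samples, against 21.1% of all genes. In WT mice the stages also differed in sex as read from the arrays, since Xist was above the Y-linked gene Eif2s3y in 3 of 3 leukemias and in 0 of 3 preleukemic samples, and the 2 cannot be told apart there. Among Pax5+/- samples both kinds occurred at both stages. There the members' median difference was 0.80 where Xist was above Eif2s3y (5 leukemias and 3 preleukemic samples) and 0.85 where it was below (5 and 4).

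Markers of other cells differed here as well. All 5 megakaryocyte markers rose, with mean levels of 6.57 to 6.77 before WT leukemia and 9.69 to 10.44 in it. Of 13 monocyte and macrophage markers 7 rose (6.37 to 7.45 before, 8.45 to 8.61 in leukemia). Of 14 neutrophil markers only 1 passed, as higher, and their mean levels overlapped (6.49 to 10.65 before, 9.37 to 10.32 in leukemia). Of 11 B cell precursor markers 7 fell and 0 rose (11.43 to 11.63 before, 9.10 to 10.70 in leukemia). Of 10 stroma and endothelium markers 7 rose and 1 fell (6.65 to 6.78 before, 8.01 to 8.23 in leukemia). Of 4 erythroid markers 2 rose (6.74 to 8.55 before, 6.51 to 9.34 in leukemia), where in Pax5+/- mice 1 fell and 0 rose. With the marker component as a covariate 33 members passed, all higher, against 17.6% of all genes, and the same limit holds for this fit.

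Srm again had the largest difference, with 11.19, 11.05 and 10.80 in leukemias 14, 15 and 17 and 7.45, 7.85 and 9.25 in preleukemic samples 18, 19 and 20. The rise was 7.11-fold (SE 0.39, adjusted p = 1.6e-05), and sample 20 stood above the other 2 preleukemic samples. Nop58 held 9.43, 9.03 and 8.88 in leukemia and 7.21, 7.06 and 8.34 before it, a 2.98-fold rise (SE 0.28, adjusted p = 0.000219). Gnl3 rose 3.37-fold, from 7.58, 7.10 and 8.16 to 9.67, 9.32 and 9.11, and Tsr1 rose 2.66-fold, from 6.84, 6.74 and 7.31 to 8.70, 8.46 and 7.97. For each of these genes sample 20 was the preleukemic sample nearest to the leukemias.

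The abundant nucleolar proteins rose too. Ncl held 11.32, 11.24 and 11.09 in the WT leukemias and 10.16, 9.98 and 10.83 before, a 1.86-fold rise (adjusted p = 0.000178). Npm1 held 11.52, 11.30 and 11.11 against 10.39, 9.50 and 10.56, a 2.23-fold rise (adjusted p = 6.13e-05), with preleukemic sample 19 far below the other 2. Fbl held 10.10, 10.31 and 9.82 against 9.00, 8.88 and 9.09, a 2.12-fold rise (adjusted p = 3.75e-05). Nop56, with 10.89, 10.76 and 10.50 against 10.00, 9.98 and 9.98, rose 1.66-fold (adjusted p = 0.00157). For these 4 genes the groups did not overlap.

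Among the RNA polymerase I genes, Polr1b rose 2.80-fold in WT leukemia, Polr1a 1.75-fold and Polr1c 1.94-fold. Polr1e had 7.39, 7.47 and 6.81 in leukemia and 7.5, 7.45 and 7.19 before, and its log2 difference was -0.16 with a 95% interval of -0.67 to 0.35 (adjusted p = 0.629). Ddx10 had 9.12, 8.98 and 8.82 against 8.90, 8.71 and 8.79 (log2 difference 0.17, adjusted p = 0.249). Bysl had 7.67, 7.34 and 7.20 against 7.31, 7.42 and 7.39 (log2 difference 0.03, adjusted p = 0.927). Rrs1 (0.30, adjusted p = 0.116) and Utp15 (0.33, adjusted p = 0.0946) missed the threshold although all their leukemias lay above all preleukemic samples. Noc3l passed narrowly (0.44, adjusted p = 0.0494) and lost the call with most single samples left out, leukemia 14 among them (adjusted p = 0.241). Bop1, Pes1 and Rrp9 also lost theirs without leukemia 14 (adjusted p = 0.0965, 0.101 and 0.117) and without preleukemic sample 18 (0.0774, 0.0776 and 0.101), Bop1 further without 15 or 20 and Rrp9 without 15 or 19.

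**Figure D3:**
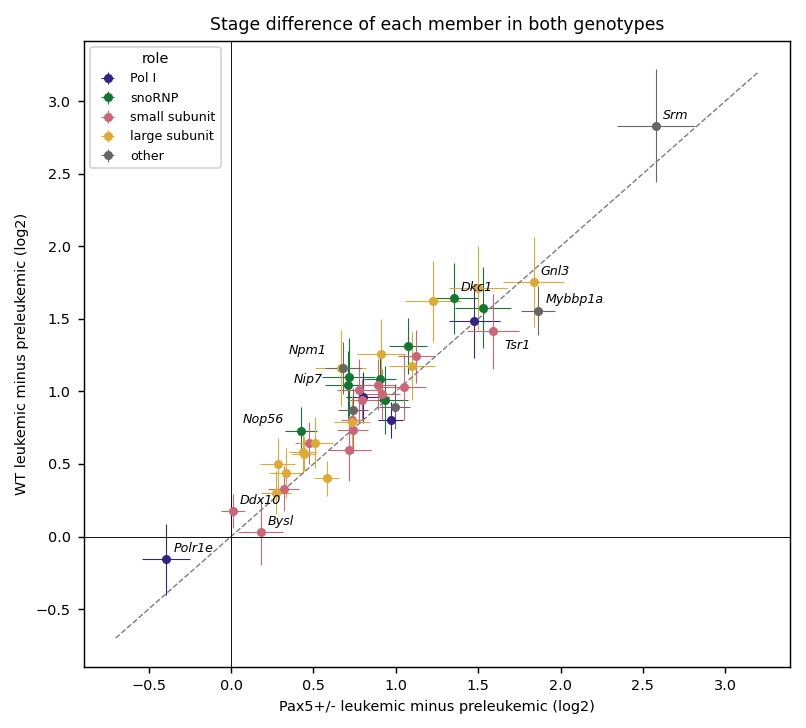
Log2 difference between leukemic and preleukemic samples of each of the 45 members in Pax5+/- mice (horizontal axis) and in WT mice (vertical axis), with the standard error of each as bars, coloured by role. Points lie along the dashed line of equal differences, with Srm at 2.58 and 2.83 at one end and Polr1e at -0.39 and -0.16 at the other.

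The members ranked alike in the 2 genotypes, which share no samples. All 45 had the same sign in both, 40 passed as higher in both, and Rrs1, Utp15 and Polr1e passed in Pax5+/- mice only. The correlation of their log2 differences was 0.943 across the 45 genes, and across all genes tested it was 0.904. Genes are not independent replicates, and this correlation is a description. The WT difference was the larger in size for 34 members. The test of the difference between the genotypes' stage effects (the interaction) called 0 of 45 members in limma, against 0.0965% of all genes, and 1 member (2.22%) had an unadjusted p under 0.05, against 7.19% of all genes. The smallest p were those of Npm1 (-0.48 on the log2 scale, smaller in Pax5+/- mice, adjusted p = 0.656), Nip7 (-0.49, adjusted p = 0.798) and Nop56 (-0.31, adjusted p = 0.801). Single WT samples moved these values, that of Npm1 to -0.16 without preleukemic sample 19 and that of Nip7 to -0.29 without leukemia 14 and -0.76 without leukemia 17. The 95% interval of the interaction lay within 1 log2 unit of 0 for 41 members and within 0.5 for 14, so differences of moderate size could not be seen.

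Before leukemia, which asks whether loss of 1 Pax5 copy alters the set in irradiated precursors, 0 of 45 members passed between Pax5+/- and WT cells in limma, against 0.624% of all genes. At an unadjusted p under 0.05 there was 1 member (2.22%), against 8.97% of all genes. That member was Polr1a, which held 7.68 to 8.00 (median 7.85) in the 7 Pax5+/- samples and 8.11, 8.37 and 8.17 in the 3 WT samples. All 7 thus lay below all 3, and the log2 difference was -0.39 (SE 0.104, adjusted p = 0.11). Non-overlap in that direction held for 3.1% of all genes. In the other direction, which held for 2.09% of all genes, it was seen for Nop56, with 10.02 to 10.33 in the Pax5+/- samples and 10.00, 9.98 and 9.98 in the WT samples (log2 difference 0.15, adjusted p = 0.864). With array weights the adjusted p of Polr1a was 0.0362, and with the marker component as covariate it was 0.0369. Mybbp1a (-0.29, adjusted p = 0.576) and Nip7 (0.38, adjusted p = 0.673) followed, and the difference of Mybbp1a was -0.05 without WT sample 20 and that of Nip7 was 0.21 without WT sample 19. For all 45 members the 95% interval lay within 1 log2 unit of 0, and for 28 it lay within 0.5. Between these groups all 14 neutrophil markers (median -1.446) and all 9 NK cell markers (median -1.345) were below 0, with 0 called. The neutrophil difference rested on WT sample 20, with a mean marker level of 10.65. WT samples 18 and 19, at 6.49 and 6.53, lay within the Pax5+/- range of 6.15 to 6.81. Xist was above Eif2s3y in 3 of the 7 Pax5+/- samples and 0 of the 3 WT samples. What these differences add to the member values was not tested.

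Between the leukemias of the 2 genotypes 0 of 45 members passed in limma, against 0.341% of all genes, and 1 (2.22%) had an unadjusted p under 0.05, against 5.89% of all genes. It was again Polr1a, with 8.45 to 9.08 (median 8.81) in the 10 Pax5+/- leukemias and 9.10, 9.05 and 8.91 in the 3 WT leukemias, overlapping ranges and a log2 difference of -0.22 (SE 0.099, adjusted p = 0.776). Npm1 differed by -0.26 (adjusted p = 0.923) and Nat10 by -0.24 (adjusted p = 0.945). Without WT leukemia 14 the difference of Npm1 was -0.16 and that of Nat10 -0.14. The median over the members was -0.11, with 37 of 45 below 0, while over all genes it was 0.01, with 7214 of 15542 below 0. That median depended on single WT leukemias, at -0.01 without 14 and -0.24 without 17. In the same comparison all 14 neutrophil markers were below 0 (median -1.62, 0 called), and of 4 erythroid markers all were below 0 and 2 passed as lower (median -2.02). Xist was above Eif2s3y in 5 of the 10 Pax5+/- leukemias and 3 of the 3 WT leukemias. The part of these markers and of sex in the members' values was not tested. The 95% interval lay within 1 log2 unit of 0 for 44 members, and Srm had the widest, from -1.02 to 0.29.

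The Pax5+/- leukemias differed among themselves more than the preleukemic samples did. The median SD of a member was 0.28 across the 10 leukemias, against 0.17 for all genes, and 0.15 across the 7 preleukemic samples, against 0.12. Srm varied most in leukemia (SD 0.56) and Pes1 least (SD 0.11). The members also varied together. Over the 990 pairs of members the median correlation across the 10 leukemias was 0.704, with 99.7% of pairs above 0, and across the 7 preleukemic samples it was 0.318, with 74% above 0. The points of each correlation share their arrays and their admixture of other cells, and pairs of other genes were not examined. The median correlation was 0.669 without leukemia 3, 0.676 without 9 and 0.681 without 10. Without all 3, which were picked for holding most of the lowest and highest values, it was 0.285 over the other 7 leukemias, with 74.2% of pairs above 0, and taking out such extremes lowers a correlation by construction.

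Leukemia 3 was the lowest of the 10 for 32 of 45 members, and it was in the upper part of the ranking only for Ncl and Nop14. Its median gap to the median of the other leukemias was -0.54 on the log2 scale, and for Srm the gap was -1.57. Even so, 27 members lay above every preleukemic sample in leukemia 3, against 36 to 44 in the other 9, while 30% of all genes did so there. Leukemias 9 and 10 held the highest value for 41 of 45 members. The shares of all genes lowest in leukemia 3 or highest in leukemias 9 and 10 were not taken. Preleukemic sample 12 stood out at the other stage, with the highest value of its 7 for 23 members, against 15.7% of all genes. The median differences of leukemias 9 and 10 from the preleukemic mean were 1.17 and 1.12, against 0.34 in leukemia 3 and 0.66 to 0.86 in the other 7.

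**Figure D4:**
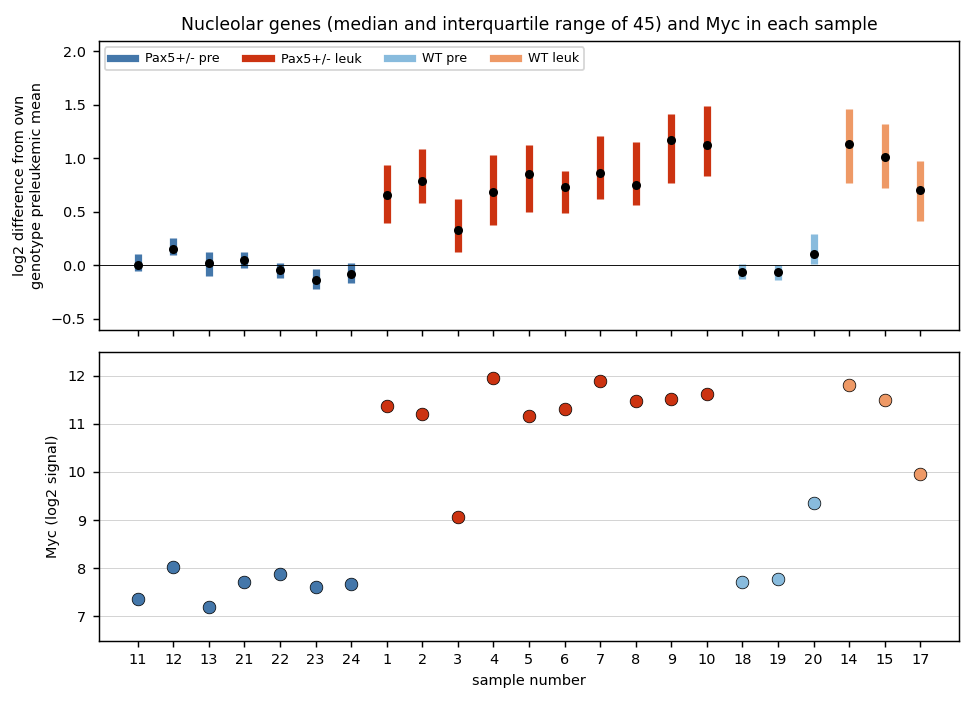
Upper panel, median (point) and interquartile range (bar) over the 45 members of the log2 difference from the preleukemic mean of the same genotype, in each of the 23 samples. Lower panel, log2 signal of Myc in the same samples. Leukemia 3 and WT leukemia 17 are the lowest of their groups in both panels. WT preleukemic sample 20 lies apart for Myc (9.35, against 7.72 and 7.77 in samples 18 and 19). Its median member difference is 0.107, against -0.063 and -0.057 in those samples. Leukemias 9 and 10 have the highest medians of the Pax5+/- leukemias (1.169 and 1.124), with Myc (11.52 and 11.62) within the range of the others. Leukemia 4 has the highest Myc of that group (11.95), with a median of 0.686.

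Myc, which encodes a transcription factor with many known targets in this pathway, was itself higher in leukemia, by 3.62 on the log2 scale in Pax5+/- mice (SE 0.338, adjusted p = 1.31e-08) and by 2.80 in WT mice (SE 0.561, adjusted p = 0.000659). In leukemia 3 its level was 9.07, and in the other 9 Pax5+/- leukemias it was 11.17 to 11.95. Leukemias 9 and 10, which held most of the highest member values, had Myc at 11.52 and 11.62, within the range of the others. Leukemia 4 had the highest Myc of the Pax5+/- leukemias (11.95). Its median member difference was 0.69, against 1.17 and 1.12 in leukemias 9 and 10. Among WT leukemias, 17 had the lowest median member difference (0.71, against 1.13 in 14 and 1.02 in 15) and the lowest Myc (9.96, against 11.80 and 11.49). In WT preleukemic sample 20 Myc was 9.35, against 7.72 and 7.77 in samples 18 and 19. Leukemia 3 had less Myc than sample 20 but the larger median member difference (0.34 against 0.11), each from its own genotype's preleukemic mean. No correlation between Myc and the members is given, because leukemia 3 stands apart from the other samples of its group.

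WT preleukemic sample 20 was the highest of its 3 for 30 of 45 members, against 29.2% of all genes. It exceeded both others by over 0.5 on the log2 scale for Ncl, Nop58, Dkc1, Mybbp1a, Gnl3 and Srm, and by over 1 for Nop58 and Srm. Its neutrophil markers had a mean level of 10.65, against 6.49 and 6.53 in samples 18 and 19, and their part in the member values was not tested. Without sample 20 the log2 difference of Srm between WT stages was 3.36 and that of Nop58 was 1.98.

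The 7 members whose promoter held CACGTG had log2 differences of 0.58 to 1.86 in Pax5+/- mice, with a median of 1.10. The 31 members with a promoter and no CACGTG in it ranged from -0.39 to 1.84, with a median of 0.74. The ranges overlapped widely, and several of the largest differences, among them that of Gnl3, were in promoters without the sequence, while Srm had no promoter in the table.

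Other genes of ribosome production, taken from lists written down with the members in view, rose less uniformly in Pax5+/- leukemia. Of 41 other small subunit assembly factors 22 rose and 7 fell, with a median of 0.23. Pno1 (1.34), Rcl1 (1.12) and Aatf (0.97) rose with the smallest p, and Utp23 (-0.53) fell. Of 40 other large subunit factors 22 rose and 9 fell, also with a median of 0.23. Rsl1d1 (1.14), the helicase Ddx56 (0.74) and Pelp1 (0.71) rose with the smallest p, and the helicase Ddx54 (-0.59) fell. Of 13 subunits of the RNA exosome, the nuclease that trims ribosomal RNA precursors, 9 rose and Exosc3 fell, with a median of 0.51, and the catalytic subunit Dis3 rose by 0.82.

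The transcription machinery outside the members was divided. Of 16 RNA polymerase I factors and remaining subunits, 7 rose and 3 fell, with a median of 0.02. The shared polymerase subunits Polr2f (0.72) and Polr2l (0.80) rose, and Taf1c (-0.34), a part of the factor that recruits RNA polymerase I, fell. Of 20 RNA polymerase III genes, 8 rose and 6 fell, also with a median of 0.02. Polr3e (0.94), Gtf3a (0.54) and Polr3g (0.76) rose, while Bdp1 (-0.40), Polr3gl (-0.64) and the repressor Maf1 (-0.60) fell. Polr3g and Polr3gl encode alternative versions of the same subunit.

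Ribosomal protein genes rose often but little. Of 56 tested, 42 rose and 0 fell, with a median of 0.27 and a highest value of 0.80, and examples are Rpl10a (0.34), Rps2 (0.39) and Rps18 (0.47). These genes have many processed copies in the genome, so their probe signals are less certain. Of 7 other polyamine genes, Dohh (0.36) rose and Sat1 (-0.92), which breaks polyamines down, fell, and 5 did not pass, so the size of the Srm change was not shared by that list. Of 9 genes of ribosomal DNA silencing and nucleolar stress 1 rose and 5 fell, with a median of -0.39. Baz2a (-0.94), Sirt7 (-0.94) and Mdm2 (-0.95) fell, the first 2 known as regulators of ribosomal gene chromatin, and the histone demethylase Kdm2b (0.31) rose.

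In WT mice 19 of 41 small subunit factors rose and 2 fell, 20 of 40 large subunit factors rose and 2 fell, 9 of 13 exosome genes rose and 0 fell, and 45 of 56 ribosomal protein genes rose and 0 fell. Of the RNA polymerase I list 4 rose and 2 fell, of RNA polymerase III 6 and 6, and of the silencing list 1 and 4, the last with a median of -0.05 in WT mice. In the polyamine list Odc1, the rate-limiting enzyme of polyamine synthesis, rose by 0.85 (adjusted p = 0.0483).

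**Figure D5:**
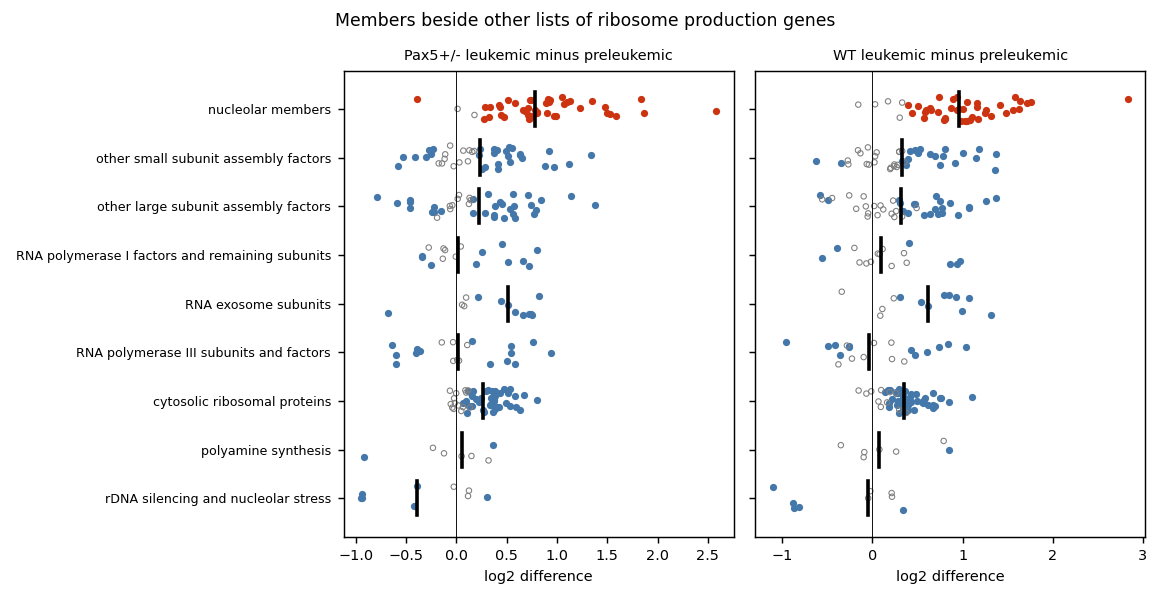
Log2 difference between leukemic and preleukemic samples for the 45 members and 8 other lists of ribosome production genes, in Pax5+/- mice (left) and WT mice (right), with filled points for an adjusted p under 0.05, open points otherwise and a black bar at the list median. The members' median is 0.78 in Pax5+/- mice and 0.96 in WT mice, and the lists of RNA polymerase I and III factors straddle 0.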

How the data were processed

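Total RNA (Trizol) was biotin-labelled (WT Terminal Labeling Kit) and read on 1-colour mouse gene arrays, per the labels' protocols. The deposited table holds log2 values for 28944 probe sets in 23 samples, already brought to a common scale by the authors. The submitters' processing notes name the Transcriptome Analysis Console, and its version, the background correction, the summarization and the normalization are not given in the sources used here.

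Probe sets with 1 gene symbol numbered 21789, those with several 1621 and those with none 5534, by GEO's platform annotation, and each of 19938 symbols took its probe set of highest mean. The 15542 genes above their array's 30th percentile on at least 3 arrays were fitted with limma 3.58.1 (R 4.3.3) over all 4 groups, with an intensity trend, two-sided tests and Benjamini-Hochberg adjustment at 0.05. Non-overlap compares lowest and highest samples. The code was tested on simulated data with 200 changed genes: of those changed by 1 on the log2 scale it recovered 95% for the Pax5+/- stages, 78% for the WT stages, 90% and 86% for genotype before and in leukemia and 78% for the interaction. At a change of 0.5 these were 75%, 44%, 58%, 54% and 34%. In the data 64.6% and 37.2% of all genes passed between the Pax5+/- and the WT stages. The recovered shares, taken with far fewer changed genes, need not hold there. Figures used matplotlib 3.10.9.

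Groups came from the labels. Levels of samples are given for the members with the largest and smallest difference per role, for Ncl, Npm1 and Fbl, for members that did not pass or went the other way, and for the smallest p between genotypes. Of other lists, up to 3 passing genes of smallest p per direction are named. The members, lists and rules were chosen with earlier results of these data known. Other filters, priors, normalizations, probe set rules, blocks, covariates and left-out samples were also run.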

Additional observations from a re-analysis of the deposited data

Results flagged for a closer look

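In each Pax5+/- group, the highest and lowest sample of every member was set against its nearest neighbour and the whole range of the group (Dixon's criterion at the 95% level). Chance marks about 1 in 20 groups, and 12 of 90 were marked, 11 of them among the leukemias. The members share their samples and varied together, so the marks are not independent and their number is no test against chance. The WT groups of 3 samples were not examined in this way.

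Leukemia 3 was the low sample in 8 members: Srm (9.22, next 10.49), Gnl3 (8.26, next 9.09), Tsr1 (7.42, next 8.13), Nop58 (8.35, next 8.97), Nop2 (8.17, next 8.80), Nop16 (10.16, next 10.81), Noc3l (7.22, next 7.78) and Heatr1 (8.71, next 9.16), all as log2 signals. Leukemia 10 was the high sample for Ncl (11.48, next 11.19) and Npm1 (11.38, next 11.13). Leukemia 9 was the high sample for Nip7 (8.54, next 7.97). Before leukemia, sample 13 was low for Rrp9 (7.18, next 7.43).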

How the results depend on the processing

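Under 36 other settings the Pax5+/- stage comparison called 33 to 44 of 45 members and the WT comparison 33 to 41. Without each sample in turn the counts were 42 to 44 and 36 to 40. The fewest calls came with the marker component as covariate. The genotype comparison in leukemia and the interaction called 0 members under every setting run, and the genotype comparison before leukemia called 1, Polr1a, with array weights and 1, again Polr1a, with the marker component, and 0 otherwise. The interaction could not be run on the groups of a single contrast. With a filter at the 50th percentile Rrs1 was not tested, and among all genes rises then outnumbered falls in Pax5+/- mice (4109 against 3684).

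The sign of some small differences changed. For Ddx10 in Pax5+/- mice the value was -0.074 with quantile normalization and -0.002 with the mouse number letter as a random block, and it ran from -0.033 to 0.034 with single samples left out. For Polr1e it was 0.002 with the marker component in Pax5+/- mice. In WT mice it was 0.252 with that component, and it ran from -0.28 to 0.05 with single samples left out. For Bysl in WT mice it was -0.092 with quantile normalization and -0.06 with the component, and it ran from -0.103 to 0.132 with single samples left out. The cause was not tested. Over members and settings, 1596 of the Pax5+/- stage values kept direction and call and 15 lost the call with the same direction, besides Polr1e under the marker component, and in WT mice 1563 kept both and 48 lost the call with the same direction, many of them for Noc3l. No paired analysis was possible because the groups share no replicate numbers. Precision is limited by the 3 WT samples per stage.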
